A study of Mus musculus with 60 samples.

Results

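Of the 60 skin carcinomas profiled in the series, 8 carry no histology call, and these 8 tumours, which came from 7 mice, are described here against the 38 tumours (35 mice) labelled squamous cell carcinoma (SCC). The 14 tumours (13 mice) labelled spindle serve as a second set of landmarks. Membership rests on the histology label alone, and no expression value was used to choose a tumour. The unlabelled tumours are numbered 1 to 8, and the numbers of the labelled tumours are likewise only names. Tumours 6 and 7 were taken from the same mouse.

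All of the mice were FVBBX animals, bred by crossing F1 hybrids of SPRET/Ei and FVB/N back to FVB/N, so each one carried its own mixture of FVB/N homozygous and heterozygous loci. Tumours were raised in every animal on the skin of the back with the mutagen dimethyl benzanthracene (DMBA) and the tumour promoter tetradecanoyl-phorbol acetate (TPA), and no untreated skin is among the arrays. The labels give a backcross origin, coat colour, sex, a p53 call and a tumor_class of 1 or 2 for each animal or tumour. Unlabelled tumours 1 and 8 are labelled p53 mutant and the other 6 are not. Tumours 4 and 8 came from females. Tumours 6 and 8 are of tumor_class 1, the other 6 are of tumor_class 2, and the sources used here do not say how that class was assigned. RNA of each whole tumour was hybridised to 1 Affymetrix mouse expression array, and levels are given as log2 values after robust multi-array averaging (RMA), so that a difference of 1 is a 2-fold difference. In whole tumours, fewer cells of a type and less RNA per cell cannot be told apart.

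A squamous carcinoma retains much of the programme of the keratinocyte. Basal keratinocytes make the partner keratins Krt5 and Krt14, cells that leave the basal layer switch to Krt1 and Krt10, wounded or hyperproliferative epidermis makes Krt6a, Krt6b, Krt16 and Krt17, and the transcription factor Trp63 maintains the stratified epithelial state. Spindle carcinomas of mouse skin are the poorly cohesive form of the disease. Basal keratins such as Krt5 and Krt14 and adhesion proteins such as E-cadherin (Cdh1) and Epcam are low in them. Mesenchymal proteins such as vimentin (Vim) are high.

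Over 18194 genes, pairs of arrays had a median correlation of 0.9555. Unlabelled tumour 3 and SCC 18, which are labelled as different mice of opposite sex, had a correlation of 0.991, the highest in the series, and only 1 other pair (SCC 21 and SCC 22) was above 0.99. Tumour 3 also lay between SCC 18 and unlabelled tumour 2. Of 847 genes that differed by over 1 log2 unit between tumour 2 and SCC 18, 824 (97.3%) had their tumour 3 value between the other two. For each of the other 59 arrays, the pair of arrays that bracketed it best did so for 87.6% of such genes at most, with a median of 78.9%. On the linear scale, the median position of tumour 3 was 46.0% of the way from SCC 18 to tumour 2. Krt1 was 8.40 in tumour 3, against 3.96 in tumour 2 and 9.38 in SCC 18, and Csn3, a milk casein, was 8.40 in tumour 3, against 9.50 in tumour 2 and 3.62 in SCC 18. For the 71 genes over 3 log2 units lower in tumour 2 than in SCC 18, tumour 3 minus SCC 18 had a median of -0.88. For the 13 genes over 3 log2 units higher in tumour 2, tumour 3 minus tumour 2 had a median of -1.04. Tumour 3 is labelled male, as is tumour 2, and its array held both Xist, which is transcribed from the inactive X chromosome of females (10.67), and Y-linked transcripts (mean 4.61). In tumour 2 these readings were 5.60 for Xist and 6.00 for the Y-linked genes. In SCC 18, from a mouse labelled female, they were 11.66 and 2.90. Tumour 1, labelled male, had neither signal (Xist 5.50, Y-linked mean 3.73). In all, 12 of 60 arrays went against their sex label, 2 of them unlabelled tumours, 7 SCC and 3 spindle. Whether RNA of several tumours met on 1 array was not tested.

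**Figure D1:**
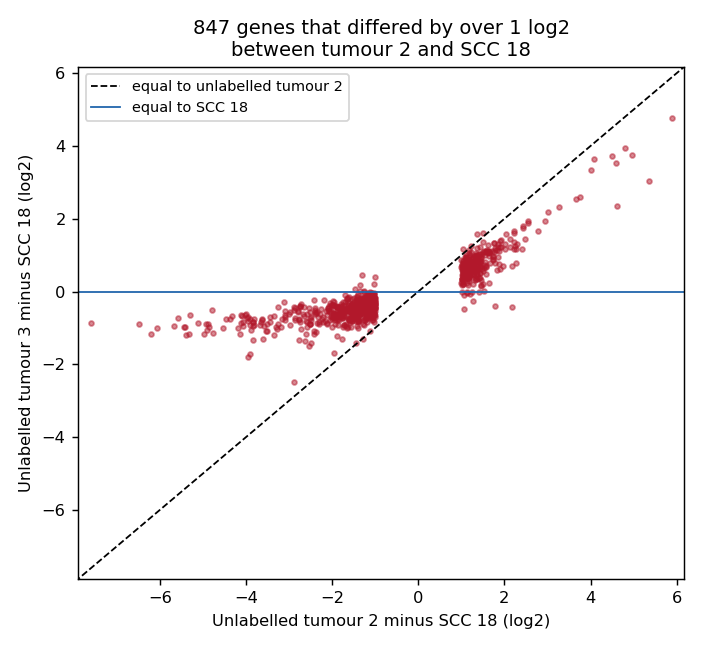
Each point is 1 of the 847 genes that differed by over 1 log2 unit between unlabelled tumour 2 and SCC 18; the horizontal axis is tumour 2 minus SCC 18 and the vertical axis is tumour 3 minus SCC 18, both in log2 units. The points fall between the solid horizontal line (equal to SCC 18) and the dashed line (equal to tumour 2) for 824 genes and flatten near -0.88 on the left.

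The position of each unlabelled tumour between the labelled histologies was read from a pair of averages. A keratin index was the mean of 11 stratified keratins and a mesenchymal index the mean of 31 mesenchymal genes, each rescaled so that the mean of the SCC mice is 0 and that of the spindle mice is 1. By keratins, 4 tumours were nearer to the SCC mean (tumours 1, 3, 5 and 7) and 4 were nearer to the spindle mean (2, 4, 6 and 8). By mesenchymal genes, only tumours 4 and 6 were nearer to spindle. Tumours 4 and 6 were thus on the spindle side of both indices, tumours 2 and 8 on that of the keratins alone, and the other 4 on the SCC side of both.

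The keratin positions were -0.252 for tumour 1, 0.529 for tumour 2, -0.196 for tumour 3, 0.548 for tumour 4, -0.706 for tumour 5, 1.605 for tumour 6, 0.25 for tumour 7 and 0.832 for tumour 8. The mesenchymal positions, in the same order, were -0.48, -0.283, 0.478, 0.815, 0.245, 1.365, -1.984 and 0.141. Tumours 2 and 4 sat so close to the midpoint of the keratin scale that 4 of 7 other ways of building the index moved them to the SCC side, whereas tumours 6 and 8 remained on the spindle side under each of the 7. The landmarks overlapped. Measured against the mean of the others, 27 of 35 SCC mice lay nearer to SCC and 10 of 13 spindle mice nearer to spindle by keratins, and by mesenchymal genes the counts were 21 of 35 and 8 of 13. In log2 units, the keratin index averaged 10.12 ± 1.27 (SD, n = 7) in unlabelled mice, 10.61 ± 1.47 (n = 35) in SCC mice and 8.57 ± 1.67 (n = 13) in spindle mice. The mesenchymal index averaged 9.79 ± 0.22, 9.75 ± 0.58 and 10.21 ± 0.52 in the same groups. All 8 tumours fell inside the range of the SCC mice on both indices.

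**Figure D2:**
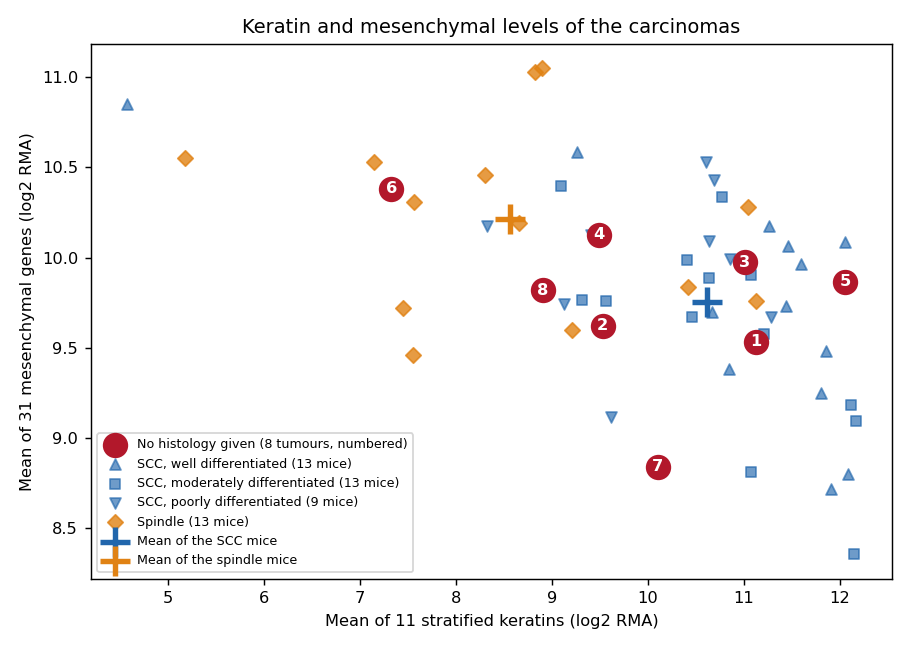
The horizontal axis is the mean of 11 stratified keratins and the vertical axis the mean of 31 mesenchymal genes (log2 RMA); numbered circles are the 8 unlabelled tumours, blue symbols SCC mice by differentiation, orange diamonds spindle mice, and crosses the means of the SCC and spindle mice. Tumour 6 (7.33 on the keratin axis) lies far to the left, with 1 SCC and 2 spindle mice lower, and tumour 5 (12.05) lies to the right of all 13 spindle mice.

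Adhesion genes divided the unlabelled tumours more sharply than either index. The mean of 33 epithelial adhesion genes was 5.94 in tumour 6 and 6.26 in tumour 8, and 9.38, 9.25, 9.31, 9.28, 9.04 and 9.16 in tumours 1, 2, 3, 4, 5 and 7. The median was 9.18 over SCC mice and 6.30 over spindle mice. Tumours 6 and 8 therefore stood near the spindle median, the other 6 stood near the SCC median, and none lay in the gap between them.

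This gap followed the tumor_class label. Tumours 6 and 8 are the only unlabelled tumours of tumor_class 1. Among the labelled tumours the same mean ran from 4.37 to 7.23 over the 14 tumours of tumor_class 1 and from 7.71 to 9.65 over the 38 tumours of tumor_class 2, so the classes did not overlap, whichever histology was given. The 5 SCC of tumor_class 1 lay between 4.37 and 7.21 and the 5 spindle tumours of tumor_class 2 between 8.55 and 9.56. Because the origin of the class label is unknown and it may have been drawn from these same arrays, the separation is given as a description.

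Single genes showed the same division, though Trp63, Epcam and Cdh1 are members of the adhesion list and so are not separate readings. Krt5 was 9.09 and 9.88 in tumours 6 and 8, and between 13.09 and 13.64 in the other 6. Among labelled tumours it ran from 5.51 to 11.58 in tumor_class 1 and from 12.72 to 13.59 in tumor_class 2. Krt14 was 10.33 and 11.46 in tumours 6 and 8 and between 13.72 and 14.17 in the others. Krt5 and Krt14 were therefore lower in tumours 6 and 8 than in any other unlabelled tumour, whereas Krt15, a further basal keratin, overlapped (4.29 and 5.88 in tumours 6 and 8, 5.87 to 8.74 in the others). Trp63 was 7.22 and 6.55 in tumours 6 and 8 and 10.01 to 10.60 elsewhere. Epcam, a surface protein of epithelial cells, was 5.56 and 6.80 against 10.59 to 11.89, and Cdh1 was 7.65 and 7.28 against 9.44 to 10.15. Krt5, Krt14, Trp63, Epcam and Cdh1 were thus all lower in both tumours than in the other 6, as were 1313 of the 12791 genes tested (10.3%).

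Mesenchymal genes were high in the same 2 tumours, though not all of them. Vim was 13.57 and 13.34 in tumours 6 and 8, and between 11.39 and 11.98 in the other 6. S100a4, a calcium-binding protein of motile cells, was 13.84 and 13.56 against 8.66 to 11.30. Zeb1, a repressor of Cdh1, was 9.00 and 8.82 against 6.16 to 7.79, between the labelled tumours of tumor_class 2 (at most 8.70) and those of tumor_class 1 (at least 9.12). Cdh2 (N-cadherin) was 6.88 and 7.61 against 3.50 to 5.19, and Twist1, a mesenchymal transcription factor, was 8.40 and 8.50 against 6.30 to 7.51. These 5 genes were higher in both tumours than in any of the rest, as were 1433 of all 12791 genes (11.2%). Snai2, a repressor that basal keratinocytes also make, ran the other way, at 9.31 and 9.28 in tumours 6 and 8 and 10.73 to 11.45 elsewhere. Collagen Col1a1, a main product of fibroblasts, was 10.64 and 9.93 in tumours 6 and 8, 11.59, 11.52, 12.82, 13.26 and 12.45 in tumours 1 to 5, and 9.91 in tumour 7. The whole mesenchymal list placed tumour 4 on the spindle side and tumour 8 near SCC. A subset of 9 of its genes (Vim, Zeb1, Zeb2, Twist1, Twist2, Snai1, Cdh2, S100a4 and Axl) placed only tumours 6 and 8 nearer to spindle (tumour 8 at 1.60). That subset holds the 5 genes found higher in both tumours and leaves out Snai2, so its placement is not a separate reading.

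**Figure D3:**
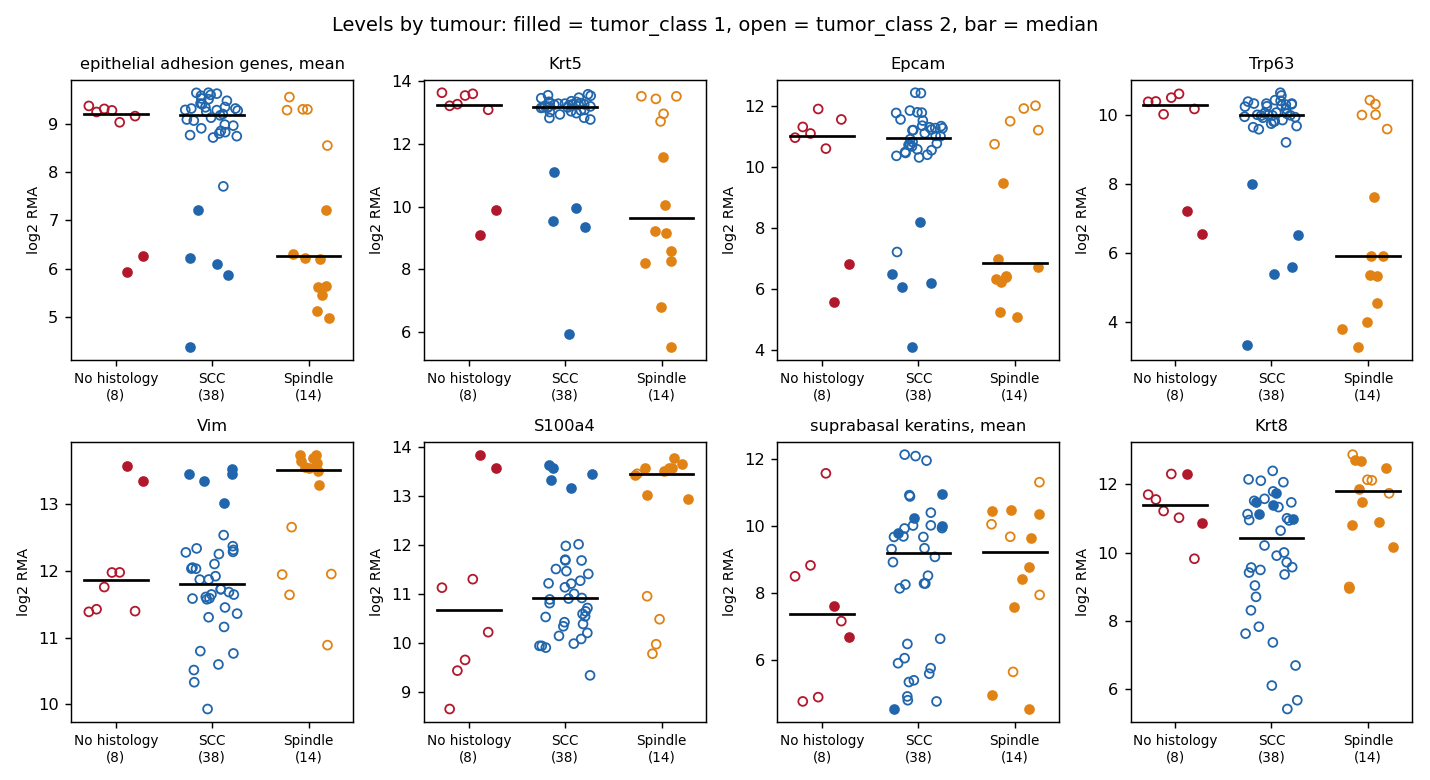
Each panel plots log2 RMA levels (vertical axis) of a gene or the mean of a gene list in the 8 unlabelled tumours, 38 SCC and 14 spindle tumours, 1 point per tumour; filled points are tumor_class 1, open points tumor_class 2 and bars medians, and the unlabelled tumours run from 1 to 8 from left to right. In the panels for adhesion genes, Krt5, Epcam, Trp63, Vim and S100a4 the filled points of tumours 6 and 8 stand apart from the other 6, while suprabasal keratins and Krt8 do not follow the class.

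Suprabasal and mucosal keratins set other tumours apart. Krt1 was 3.96 and 3.67 and Krt10 was 5.55 and 6.10 in tumours 2 and 4, whose Krt5 and adhesion genes were near the SCC median. The median over SCC mice was 8.68 for Krt1 and 9.58 for Krt10, and the lowest SCC mouse was at 3.045 and 5.765, so that Krt10 in tumour 2 was below all of them. The mean of both genes was 4.75 in tumour 2 and 4.88 in tumour 4, at the low end of the SCC range of 4.53 to 12.14. In tumour 5 it was 11.58, and in the remaining 5 tumours it ran from 6.68 to 8.83. Krt4 and Krt13, partner keratins of mucosal epithelium, averaged 3.84 in tumour 6, 8.73 in tumour 8 and 6.11 to 10.58 in the others. Labelled tumours of tumor_class 1 did not exceed 5.16 on this mean, so tumour 8 was above all 14 of them, while its Krt5 and Trp63 were within their range. Stress keratins averaged 8.50 in tumour 6, 9.99 in tumour 8 and 12.17 to 13.12 in the other 6, with an SCC median of 12.74.

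Over all genes, 6 of the 8 tumours had an SCC as their nearest labelled tumour, and SCC make up 38 of the 52 labelled tumours. The measure was the correlation over 12791 genes after the mean of the labelled mice had been subtracted. The nearest were SCC 2 for tumours 1 (0.369) and 5 (0.514), SCC 5 for tumour 2 (0.390), its near-identical SCC 18 for tumour 3 (0.723), SCC 31 for tumour 4 (0.461) and SCC 29 for tumour 7 (0.538). The nearest to tumour 6 was spindle 14 (0.648) and the nearest to tumour 8 was spindle 7 (0.535). Of the 5 nearest labelled tumours, 4 were spindle for tumour 6 and 3 for tumour 8, and at most 1 for any other. As a measure of how far this can be read, 31 of 38 SCC and 10 of 14 spindle tumours had a nearest neighbour of their own histology.

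Tumours 6 and 7 were unlike although 1 mouse bore both. Tumour 6 is of tumor_class 1 and tumour 7 of tumor_class 2, and 754 of 12791 genes (5.89%) differed by over 2 log2 units between them. The centred correlation of the pair was -0.12, against a median of 0.002 over 1765 pairs from different mice, whose median count of such genes was 407. The other 2 mice with a tumour of each class gave 1128 and 680 genes, and the 2 mice with both tumours in the same class gave 202 and 59. The centred correlations of these pairs were -0.165 and -0.276 across classes, and 0.575 and 0.684 within a class. Averaged over the mouse, tumours 6 and 7 gave a keratin index of 8.71, which neither tumour had on its own (7.33 and 10.10). Cd163, a scavenger receptor of macrophages, was 10.97 and 10.88 in tumours 6 and 7, at most 8.24 in the other unlabelled tumours and at most 10.72 in labelled tumours. Ear3, an eosinophil-associated ribonuclease, was 8.74 and 8.91, and at most 6.74 in the others. Both genes were thus high in the 2 tumours of this animal, as was Igll1, a surrogate light chain of B cell precursors (6.95 and 6.07, against 4.60 to 4.83). Cd163, Ear3 and Igll1 were picked because the mean of tumours 6 and 7 lay farthest above the labelled mice for them. Their high levels in this animal are therefore only a description.

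With no call of histology, the question for the group as a whole is whether these tumours differ from SCC. No gene passed. Of 12791 genes tested by limma over 7 unlabelled and 35 SCC mice, tumours of a mouse averaged first, 0 (0.0%) had an adjusted p (Benjamini-Hochberg) under 0.05. The lowest adjusted p was 0.811. At an unadjusted p under 0.05, 620 genes (4.85%) were counted. Against spindle, 0 of 12791 (0.0%) passed over 7 and 13 mice, with 2174 (17.0%) at an unadjusted p under 0.05 and a lowest adjusted p of 0.0855. For scale, spindle differed from SCC at 3391 genes (26.5%) over 13 and 35 mice. A p that misses the threshold does not show that the unlabelled tumours and SCC are alike. Without tumour 3, 0 genes passed against SCC and 547 were under the unadjusted threshold, and without the 12 arrays that went against their sex label 0 passed. With tumor_class 2 tumours alone, over 6 unlabelled and 32 SCC mice, the counts were 0 and 636. Against spindle, 33 genes passed (9 higher and 24 lower) when all 3 groups shared 1 estimate of spread, 11 (8 higher and 3 lower) when the mouse of tumours 6 and 7 was left out and 4 with the p53 label as a covariate.

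The smallest p values against SCC belonged to genes of modest and mixed behaviour. Prkch, a protein kinase C isoform of differentiating keratinocytes, was 6.53, 7.46, 8.07, 6.85, 6.93, 6.60, 7.71 and 6.35 in tumours 1 to 8, against a range of 7.12 to 8.72 (median 7.66) over SCC mice. The difference was -0.74 ± 0.18 (SE, limma, adjusted p = 0.811). Tumours 1, 4, 5, 6 and 8 were below every SCC mouse, tumours 2, 3 and 7 were not, and spindle mice had a median of 6.98. Fut4, a fucosyltransferase that builds the Lewis x antigen, was 4.19, 6.95, 5.84, 5.28, 4.26, 6.67, 4.07 and 6.19 in tumours 1 to 8, against 2.82 to 5.73 (median 4.33) over SCC mice, a difference of 1.16 ± 0.28 (limma, adjusted p = 0.811). Tumours 2, 3, 6 and 8 exceeded every SCC mouse while tumours 1, 5 and 7 lay at or under the median, and without tumour 3 the difference was 1.10.

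Arntl, the activator of the circadian clock, was above the SCC median in 7 of 7 mice (difference 0.60 ± 0.16, limma, adjusted p = 0.836). Nr1d1, which represses Arntl, was above it in 0 of 7 (-0.58 ± 0.17, limma, adjusted p = 0.896). Both were picked for a small p, so these counts are only a description. Exd1, Prune1 and Mga also had 7 of 7 mice above the SCC median, and 1110020A21Rik, Marchf3 and Psrc1 had 0 of 7. Gap43, a growth cone protein, differed by 1.48 ± 0.39 and Adgrg2, an adhesion receptor, by -1.75 ± 0.54, with 6 of 7 and 0 of 7 mice above the SCC median. The differences of the other genes with the smallest p on the higher side were 0.51 for Exd1, 0.49 for A730035I17Rik, 0.60 for Rab3ip, 0.86 for Il10, 0.38 for Prune1, 0.53 for Mga, 0.47 for Cnr1, 1.00 for Rarb and 1.62 for Csn3. On the lower side they were -0.39 for 1110020A21Rik, -0.88 for Marchf3, -0.68 for Slc25a15, -0.63 for Cdc42ep3, -0.37 for Acvr2a, -0.85 for Deptor, -1.06 for Psrc1, -0.42 for Syngr2 and -0.51 for Cmpk1. Several of these rest on few tumours. Csn3 was 9.50 and 8.40 in tumours 2 and 3 and 3.30 to 4.92 in the other 6, and its difference was 0.95 without tumour 2 and 1.13 without tumour 3. Il10, an anti-inflammatory cytokine, was 8.39 in tumour 6 and 3.99 to 6.34 elsewhere.

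None of the 15 keratins in the stratified and simple epithelial lists passed, with differences from -1.67 to 1.502 and standard errors of up to 1.30. Krt5 differed by -0.15 ± 0.59, Krt14 by -0.04 ± 0.54 and Krt15 by -1.32 ± 0.79. Krt1 and Krt10 differed by -0.73 ± 1.05 and -1.02 ± 0.84, Krt4 and Krt13 by -0.67 ± 1.30 and -0.34 ± 1.22, and the stress keratins Krt6a, Krt6b, Krt16 and Krt17 by -0.24, -0.22, -0.45 and -0.22. These 11 stratified keratins were all lower by point estimate, and for 9 of them the difference was smaller than its standard error. Of the simple epithelial keratins, Krt8 was 11.70, 11.56, 11.22, 12.30, 11.02, 12.31, 9.82 and 10.86 in tumours 1 to 8, against a median of 10.21 and a range of 5.42 to 12.39 over SCC mice. Its difference was 1.502 ± 0.72 (limma, adjusted p = 0.988) and 7 of 7 mice exceeded the SCC median, since tumour 7, the only one below it, was averaged with tumour 6. Krt18, its partner, differed by 0.50 ± 0.46, Krt7 by 0.00 ± 1.01 and Krt19 by -1.67 ± 1.12. Over tumours, the spindle and SCC medians were 11.80 and 10.43 for Krt8, and 7.72 and 9.04 for the mean of the simple epithelial keratins.

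The genes listed for adhesion and mesenchyme did not pass either. Vim differed by 0.27 ± 0.32, Fn1 (fibronectin) by 0.22 ± 0.34, Zeb1 by 0.08 ± 0.34, Twist1 by 0.49 ± 0.25, Snai2 by 0.29 ± 0.23, S100a4 by -0.25 ± 0.45, Cdh2 by 0.42 ± 0.41, Col1a1 by -0.32 ± 0.37 and Pdgfrb, a receptor of fibroblasts and pericytes, by 0.37 ± 0.34. Cdh1, Epcam and Trp63 differed by -0.21 ± 0.46, -0.32 ± 0.71 and -0.01 ± 0.60. The sign of some keratin, adhesion and mesenchymal values changed with the SCC mice used. Those named next were smaller than their standard errors against all SCC mice, and dependence on grade was not tested. With the comparison narrowed to the 9 mice whose SCC was poorly differentiated, Krt13 stood at 0.61, Cdh1 at 0.21 and Vim at -0.20, each on the other side of 0 from its value against all SCC mice. By keratin index the poorly differentiated SCC averaged 10.06 ± 0.98 (SD, n = 9), the moderately differentiated 10.77 ± 1.03 (n = 13) and the well differentiated 10.83 ± 2.03 (n = 13).

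Among the gene lists, 0 members passed in any list against SCC, and the median difference over all 12791 genes was 0.01, with 6844 of them higher. Of 33 cornified envelope genes, which build the barrier of the outer epidermis, 1 was higher and 32 lower by point estimate, with a median of -0.62. Spink5, a protease inhibitor, had the largest difference in that list (-2.04 ± 0.71, limma, adjusted p = 0.988), followed by Lce3a (-1.70 ± 0.96) and Lce3f (-1.52 ± 0.91). The list mean was 8.00, 6.345, 8.56, 6.46, 9.22, 5.325, 9.00 and 7.12 in tumours 1 to 8, with an SCC median of 8.26, so tumours 1, 2, 4, 6 and 8 lay below it and tumours 3, 5 and 7 above. Cldn7, Ocln and Ovol1 led the 33 adhesion genes at -1.001, -0.78 and -0.69, and 10 of that list were higher.

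Of 18 striated muscle genes, 1 was higher, with a median of -0.55. The list mean was 8.62 in tumour 5 and 4.49 to 6.56 in the others, against 5.18 to 10.22 over SCC mice. At 4.49 and 5.13, tumours 6 and 8 lay under the whole range of the SCC mice. The spindle mice ran from 4.67 to 8.93, a range that held tumour 8 but not tumour 6. Myh1 (myosin heavy chain), Tnnc2 (troponin C) and Mb (myoglobin) differed by -1.17, -0.94 and -0.82. Dorsal skin lies over a sheet of striated muscle, and the part of adjacent muscle in these values was not tested. Tumour 5 also held the highest Adipoq (8.82) and Plin4 (6.69) of the unlabelled tumours, both products of adipocytes. Tumours 1 and 5 had the hair follicle inner sheath keratins Krt25 (7.76 and 7.74) and Krt27 (6.82 and 6.67), which were at most 3.47 and 4.09 in the other 6 tumours. Over whole lists, 10 of 13 hair follicle genes were higher (median 0.24), as were 2 of 9 sebaceous gland genes (-0.27) and 1 of 6 adipocyte genes (-0.28).

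Of 26 mitosis genes, 25 were higher by point estimate, with a median of 0.22, led by Kif11 (0.38), Ndc80 (0.37) and Ccnb2 (0.33). Of 19 interferon response genes 18 were higher, with a median of 0.25, led by Usp18 (0.95 ± 0.38, limma, adjusted p = 0.988), Ifit1 (0.49) and Ifit2 (0.48). The interferon list divided the tumours, at 6.88, 6.60, 6.77, 6.45 and 6.50 in tumours 2, 3, 4, 6 and 8 and 5.30, 5.35 and 5.57 in tumours 1, 5 and 7, with an SCC median of 5.84. Of the class II antigen presentation genes 4 of 6 were higher (Cd74 0.46, H2-Ab1 0.45, H2-Aa 0.44). Of 27 p53 target genes 7 were higher, with Psrc1 lowest and Gadd45a (0.63) and Mdm2 (0.63) highest. Mdm2 stood at 0.20 without tumour 5.

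Immune and stromal lists had medians between -0.28 and 0.13, and 0 of 9 mast cell and 0 of 10 fibroblast genes were higher, against 53.5% of all genes. The median difference was 0.13 over 14 macrophage genes (8 higher; C1qc 0.38, Msr1 0.36, C1qb 0.31), -0.06 over 13 neutrophil genes (6 higher; Ngp 0.52, Clec4d -0.48, Clec4e -0.30), -0.04 over 10 T and NK cell genes (2 higher; Gzmb 0.44, Cd3d -0.24, Cd4 -0.11) and -0.28 over 9 mast cell genes (0 higher; Mcpt4 -0.66, Cpa3 -0.53, Cma1 -0.41). Mast cell genes averaged 7.90 in tumour 6 and 6.80 in tumour 8, above the median of 6.51 over SCC mice. The other tumours ran from 4.91 to 6.38, and tumour 6 entered the differences averaged with tumour 7 (4.91). Tumour 6 had the highest macrophage mean of the 8 (10.50) and tumour 1 the lowest (8.09). The plasma cell gene Jchain, which joins secreted antibody, was 9.55, 8.35, 7.44, 9.93 and 9.50 in tumours 2, 3, 6, 7 and 8 and 3.20 to 4.78 in the other 3. Fibroblast markers had 0 of 10 higher with a median of -0.21 (Mfap5 -0.73, Dpt -0.63, Pi16 -0.42), and 12 endothelial genes had a median of -0.01 (Lyve1 0.60, Tek -0.30, Tie1 -0.18). In the remaining lists 4 of 6 B and plasma cell genes were higher (0.13), 12 of 19 hypoxia and glycolysis genes (0.06), 3 of 5 melanocyte genes (0.00) and 9 of 21 genes of IL1 and neutrophil chemokines (-0.09).

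**Figure D4:**
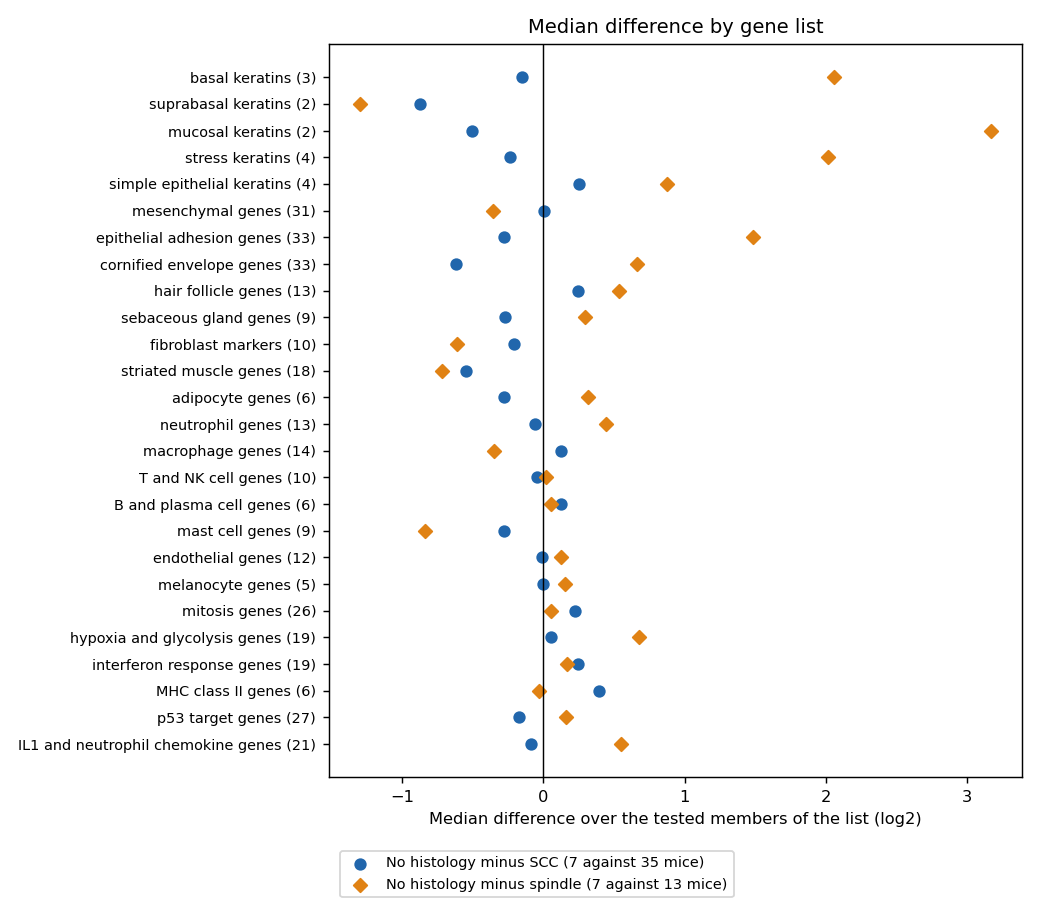
Median log2 difference over the tested members of each gene list (number of genes in parentheses): circles are unlabelled minus SCC mice (7 against 35) and diamonds unlabelled minus spindle mice (7 against 13). Basal keratins (-0.15 and 2.05), stress keratins (-0.23 and 2.02) and adhesion genes (-0.28 and 1.49) lie near 0 against SCC and to the right against spindle, and suprabasal keratins lie left of 0 in both.

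Against spindle, most epithelial lists were higher by point estimate. All 33 adhesion genes were higher, with a median of 1.49, and 19 of them were under an unadjusted p of 0.05, against 17.0% of all genes. Basal, stress and mucosal keratins had medians of 2.05, 2.02 and 3.17, and Krt1 and Krt10 ran the other way at -1.41 and -1.18. Trp63 differed by 2.70, Epcam by 1.94, Vim by -0.96, Zeb1 by -1.36 and S100a4 by -1.78 (limma, adjusted p = 0.191, 0.336, 0.190, 0.140 and 0.212). Tumours 6 and 8 were within the spindle range for each of these 5 genes apart from S100a4 in tumour 6. That value was 13.84, above the highest spindle tumour (13.78). The range was wide, and for Vim (10.89 to 13.74) and Epcam (5.07 to 12.00) it held all 8 unlabelled tumours. Being within it therefore does not set tumours 6 and 8 apart.

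Each unlabelled mouse was then searched for genes outside the range of all labelled mice, with tumours 6 and 7 averaged. The counts, above and below in turn, were 367 and 208 for tumour 1, 204 and 133 for tumour 2, 77 and 116 for tumour 3, 131 and 235 for tumour 4, 105 and 140 for tumour 5, 60 and 54 for the mouse of tumours 6 and 7, and 605 and 465 for tumour 8. The unlabelled mice had a median of 337 such genes (114 to 1070), the SCC mice 459 (46 to 1670) and the spindle mice 544 (247 to 1352), each labelled mouse being set against the other labelled mice. By mouse, then, the unlabelled counts were within those of the labelled mice. The lowest count of each group (114, 46 and 247) belonged to a mouse whose 2 averaged tumours differed in tumor_class. Tumours 6 and 7 were not counted singly. The genes named next were picked for being farthest outside that range, so their distance is a description.

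Tumour 5 stood out for where its genes lie. Of the 17 genes that exceeded all 52 labelled tumours by over 1 log2 unit, 16 are on chromosome 10, in a pair of separate stretches of neighbouring genes. In the stretch of 20 tested genes between Cct2 and Lemd3, 13 were above every labelled tumour and 10 by over 1 unit. Mdm2, the ubiquitin ligase that degrades p53, was 11.88 in tumour 5 and 8.34 to 9.25 in the other 7 unlabelled tumours, with a labelled median of 8.67 and maximum of 9.50, which makes tumour 5 9.30 times the labelled median. Dyrk2, a kinase, was 12.35 (labelled maximum 9.31), Nup107, a nuclear pore subunit, was 12.16 (8.87), Lemd3, an inner nuclear membrane protein, was 11.19 (8.16), Cand1, a regulator of cullin ligases, was 11.96 (9.30) and Cpm, a carboxypeptidase, was 9.24 (6.73). Of the others in the stretch, Hmga2, Lyz1, Lyz2, Mdm1, Grip1, Helb and Irak3 were not above the labelled maximum. In the second stretch, 15 tested genes from Eif4ebp2 to Supv3l1, 11 were above every labelled tumour and 6 by over 1 unit. Supv3l1, a mitochondrial RNA helicase, was 11.85 in tumour 5 and 6.81 to 7.45 in the other 7, with a labelled maximum of 7.81. Eif4ebp2, a repressor of translation initiation, was 11.07, 3.07 above the labelled median.

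Such runs were uncommon but not particular to tumour 5. Counting the genes over 0.5 above all arrays from other mice within any 20 consecutive tested genes, tumour 5 reached 11, the other 7 unlabelled tumours 0 to 3, and the 52 labelled tumours 1 to 11 with a median of 2, of which 7 reached 5 or more. Tumour 5 is not labelled p53 mutant, and the mean of its 27 p53 target genes, Mdm2 included, was 7.83, against an SCC median of 7.895. The paper that reported the carcinomas also measured their DNA copy number, and those values were not analysed here.

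**Figure D5:**
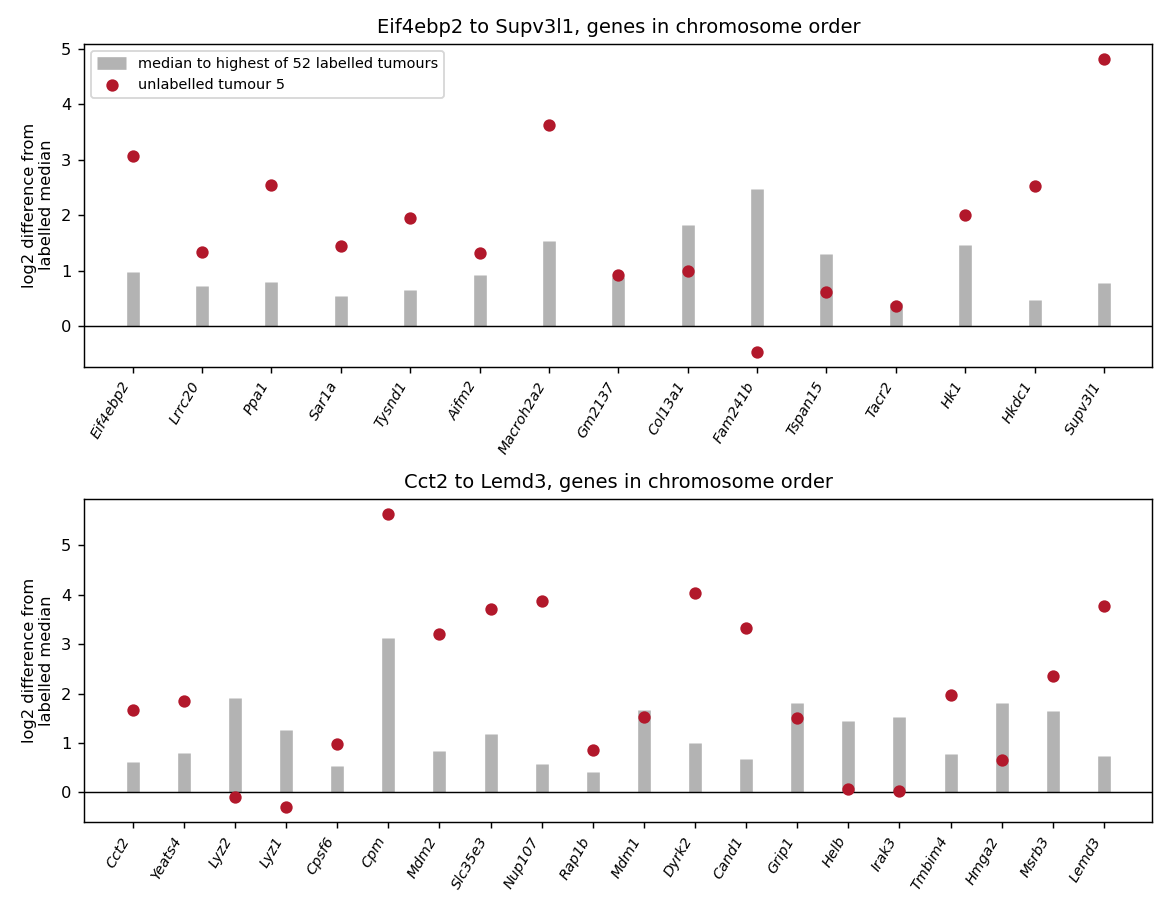
Genes of the 2 stretches of chromosome 10 in their order along the chromosome (horizontal axis) against the log2 difference from the median of the 52 labelled tumours (vertical axis); points are unlabelled tumour 5 and grey bars run from the labelled median to the labelled maximum. Supv3l1 (4.82) and Cpm (5.64) lie highest. From Eif4ebp2 to Supv3l1 11 of 15 points and from Cct2 to Lemd3 13 of 20 are above their bars. The ends of each stretch were set at genes already above every labelled tumour.

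Among the unlabelled mice, that of tumour 8 had the most genes outside the range. Pvt1, a long non-coding RNA gene next to Myc, was 11.35 in tumour 8 and 5.66 to 6.89 in the other unlabelled tumours, with a labelled maximum of 7.95. Myc itself, the transcription factor, was 10.58 in tumour 8, 7.64 to 8.98 in the other 7 and at most 9.03 in labelled tumours. Both neighbours on chromosome 15 were thus above every labelled tumour. Bcat1, an enzyme of branched-chain amino acid breakdown, was 10.67 (labelled maximum 8.16) and Etnk1, an ethanolamine kinase close to it on chromosome 6, was 10.60 (9.40), while Sox5, which lies between them, was 4.90, 0.19 above the labelled median. Arsj was the third gene farthest above the range (7.51), and Rangrf (4.39), Med20 (5.09) and Thumpd1 (5.72) were farthest below, with labelled minima over mice of 6.07, 6.74 and 7.05.

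Tumour 1 was marked by Hdac5, a class II histone deacetylase, at 11.60, against 5.50 to 7.57 in the other unlabelled tumours and a labelled maximum of 7.99. Gmeb2 (9.87, labelled maximum 7.83) and Gpr39 (7.70) followed, and Gmeb1 (4.60), Dock11 (4.12) and Lmo1 (5.27) were farthest below. Its Cd74, the invariant chain of class II molecules, was 9.99 and the next lowest unlabelled mouse was at 11.16. Tumour 4 had low Cxcl12 (4.81), a stromal chemokine, and low Selp (4.49), an adhesion molecule of activated endothelium, each below the labelled minimum of 6.08 and 5.51, with Ccdc3 (4.55) also below. Selp was below its labelled minimum in tumour 8 as well (4.75). In tumour 4 the genes farthest above were Gpr25 (8.34), Tedc1 (7.68) and Prss53 (7.53), each by under 1 log2 unit.

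Tumours 2 and 3 shared their 3 leading genes. Rab30, a Golgi GTPase, was 8.56 and 7.88 in tumours 2 and 3, 4.20 to 5.34 in the other 6 and at most 5.60 in labelled tumours. Prl2a1, a prolactin family hormone, was 9.12 and 8.33 (labelled maximum 6.27), and Csn3 reached 6.67 at most in labelled tumours. Rpl39l was 11.78 and 10.63 (9.84) and Thop1, a peptidase, was 9.82 and 9.23 (8.00). For each of the 5 genes tumour 3 was lower than tumour 2 and above SCC 18. Farthest below the labelled range were Mfap3l (4.55), Prkar2b (3.65) and Crabp1 (6.08) in tumour 2, and Map3k12 (5.53), Cadm1 (6.92) and Lrp8 (4.96) in tumour 3. In tumour 5 the genes farthest below were Arpin (4.30), Rdh10 (7.36) and Ccdc22 (5.73), and in the mouse of tumours 6 and 7 they were Gstk1 (4.62), Mn1 (3.18) and Cd59a (6.16), all by under 1 unit.

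The labels of the mice were compared last, in 6 tests. Backcross origin F1BSF1 was given for 5 of 7 unlabelled mice and 6 of 35 SCC mice (two-sided Fisher's exact test, p = 0.00851, adjusted over the 6 tests 0.0511), and for 6 of 13 spindle mice. Males made up 5 of 7 and 12 of 35 (exact p = 0.0988, adjusted 0.296). The p53 mutant label was given for 2 of 7 and 8 of 35 (exact p = 1.0), a white coat for 4 of 7 and 16 of 35 (exact p = 0.691) and a tumour of tumor_class 1 for 2 of 7 and 4 of 35 (exact p = 0.257). Papillomas at 20 weeks averaged 3.14 in unlabelled mice (0 to 14) and 6.91 in SCC mice (0 to 35), with a two-sided exact permutation p of 0.226. None of the 6 label differences passed after adjustment. With the origin label as a covariate, 0 genes passed against SCC, and Krt5, Krt14, Krt6a, Krt6b, Krt17 and Trp63 stood at 0.35, 0.49, 0.28, 0.34, 0.30 and 0.42, on the other side of 0 from their values without it.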

How the data were processed

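Total RNA of 60 carcinomas was hybridised to Affymetrix mouse expression arrays, and the authors deposited log2 values after RMA, as the submitters' processing notes name it. No version of RMA is given in the sources used here. Of 45101 probe sets, 34958 carry 1 gene symbol, 932 several and 9211 none. Symbols were updated through gene identifiers for 34754 probe sets. The probe set with the highest mean represented each of 18194 genes, and the 12791 genes that exceeded their array's median in 8 or more tumours were tested. Array medians ran from 4.43 to 4.56. Tumours of a mouse were averaged, and groups were compared with limma 3.58.1 in R 4.3.3 (lmFit, eBayes, Benjamini-Hochberg over all genes, threshold 0.05), which was checked on simulated data. Tumours were grouped by the histology label. Gene order came from RefSeq (GRCm38.p6), for names and neighbours alone. Named genes were the 12 smallest p each way, all keratins, 12 epithelial and mesenchymal genes, the 3 largest differences of each other list and the 3 genes farthest outside the labelled range each way per mouse. The comparison, gene lists and rules were chosen with earlier results of these data known, and other genes were named after their values were seen. Alternatives covered the filter, probe sets, scaling, model, covariates and left-out arrays or mice. Those on near-identical arrays, on SCC of good or moderate differentiation and on tumor_class 2 alone were chosen after seeing the data. With arrays, the number of mice limits the precision.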

Additional observations from a re-analysis of the deposited data

Results flagged for a closer look

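Values far from the other 6 unlabelled mice, by the ratio of the gap to the range (Dixon's limit of 0.568 for 7 values), were found for 8 of 114 genes and lists examined. For independent values chance alone gives about 1 in 20. Many of these genes are related or were picked from the same data, so that rate is no yardstick for the count. Tumour 5 gave 5 of the 8. Mdm2 was 11.88 there, Mb 9.41, Adipoq 8.82 and Plin4 6.69, each the highest of the 7 mice, and Egln3, an oxygen-sensing hydroxylase, was the lowest at 8.47 (tumour 6 alone was at 8.25, before averaging with tumour 7). In tumour 8, Twist1 (8.50) and Cdh2 (7.61) were the highest of the 7 mice. Tumour 6, at 8.40 and 6.88 on its own, enters this comparison averaged with tumour 7. In tumour 1, Cd74 was the lowest at 9.99.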

How the results depend on the processing

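Against SCC the count stayed at 0 under every alternative except no filter on low values, with which 1 gene passed, Tafa2 (4.91, 6.81, 5.48, 4.41, 3.89, 3.48, 3.21 and 3.46 in tumours 1 to 8, labelled maximum 5.42). Against spindle it was 33 with the 3-group model, 4 with the p53 label as a covariate and 0 to 11 with 1 unlabelled mouse left out. At an unadjusted p under 0.05 the spindle count was 2174, against 916 in tumor_class 2 alone and 836 without arrays against their sex label. With adhesion genes in place of keratins tumours 2 and 4 stood at -0.236 and -0.254. With the subset of 9 mesenchymal genes alone tumours 7 and 8 stood at -0.493 and 1.598. Of 2566 recomputed values of 112 named genes, 77 had the other direction and 0 passed; the cause was not tested. With the origin label Krt5, Krt14, Krt6a, Krt6b, Krt17 and Trp63 were 0.35, 0.49, 0.28, 0.34, 0.30 and 0.42. Against poorly differentiated SCC alone Krt1 was 0.26, Krt10 0.22, Krt4 0.88, Krt13 0.61, Krt18 -0.27, Vim -0.20, Fn1 -0.0688, Zeb1 -0.31, Cdh2 -0.11, Cdh1 0.21, Epcam 0.0607, Trp63 0.0348, Zeb2 -0.0092, Ovol1 0.0297, C1qc -0.0267, Msr1 -0.29, C1qb -0.16, Slc45a2 0.0728, Cd74 -0.0318 and H2-Aa -0.0285. In tumor_class 2 alone Krt5 was 0.19, Krt14 0.16, Zeb1 -0.15, Cdh2 -0.0893, Epcam 0.22, Trp63 0.28, Fabp4 0.14, Pmel -0.0498 and Slc45a2 0.022. Krt7 was -0.0126 with a common 75th percentile, -0.064 with mouse as a random effect, -0.23 with sex, -0.10 against well and moderately differentiated SCC, -0.35 without arrays against their sex label, -0.19 without 3 arrays of large Gapdh 3′ to 5′ difference and -0.45 without near-identical arrays. In the same settings Slc45a2 was 0.0149 (sex), Krt25 -0.0822 (sex label), Trp63 0.0345 (Gapdh) and S100a4 0.07 (near-identical), and with the mean of all probe sets Trp63, Ighm and Slc45a2 were 0.0256, 0.0209 and 0.0237. Leaving out 1 unlabelled mouse at a time gave Krt5 -0.32 to 0.30, Krt14 -0.19 to 0.27, Krt13 -0.76 to 0.18, Krt6a -0.38 to 0.0778, Krt6b -0.37 to 0.0117, Krt17 -0.51 to 0.17, Krt7 -0.34 to 0.51, Krt25 -0.10 to 0.70, Zeb1 -0.12 to 0.23, S100a4 -0.71 to 0.11, Cdh2 -0.0251 to 0.63, Cdh1 -0.35 to 0.13, Epcam -0.61 to 0.24, Trp63 -0.18 to 0.50, Tie1 -0.27 to 0.0047, Pmel -0.0622 to 0.13 and Slc45a2 -0.0913 to 0.0392. Without the mouse of tumours 6 and 7 Krt5 was 0.101 and Krt17 0.0697. No paired analysis was possible because no mouse gave both an unlabelled and a labelled tumour. The number of arrays, 7 mice against 35, limits the size of difference that could pass.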

Other observations

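Other clock genes were read after Arntl and Nr1d1 had been seen among the smallest p values, so they are values without independent weight. Against SCC, the unlabelled mice differed by -0.46 ± 0.18 (SE) for Clock, -0.44 ± 0.19 for Per3, -0.38 ± 0.15 for Tef, -0.39 ± 0.21 for Nr1d2, -0.68 ± 0.40 for Dbp, -0.03 ± 0.23 for Per1 and 0.47 ± 0.26 for Per2. Hlf, Cry1, Cry2, Ciart and Bhlhe41 stood at 0.19, 0.26, 0.11, 0.06 and 0.24, so the clock genes lay on both sides of 0. Against spindle, Tef, Per3, Nr1d2, Dbp, Nr1d1, Per1, Per2, Cry2 and Clock stood at -0.88, -1.01, -0.89, -1.33, -0.74, -0.61, -0.20, -0.12 and -0.08, and Arntl, Hlf, Cry1, Ciart and Bhlhe41 at 0.48, 0.34, 0.15, 0.20 and 0.35. None passed in limma after adjustment over all genes. Dbp and Tef are activators that the clock drives, Hlf is of the same family, and the time of day at which tumours were taken is not in the labels.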
